A study of Mus musculus with 27 samples.

Results

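The nuclear genes of oxidative phosphorylation were followed by mRNA level in mouse CD8 T cells at rest, early after stimulation and as effector cells. The genes were chosen by name: every gene in the deposited tables whose symbol starts with Nduf, Uqcr, Cox4, Cox5, Cox6, Cox7, Cox8 or Atp5, together with Sdha, Sdhb, Sdhc, Sdhd, Cyc1 and Cycs, with 7 symbols ending in -ps left out as pseudogenes. The rule gave 99 of the 35275 genes in the tables. Of these, 39 belong to complex I, 4 to complex II, 9 to complex III, 21 to complex IV (Ndufa4 and Ndufa4l2 were counted here) and 16 to complex V. Cytochrome c (Cycs) stands alone, 8 genes encode assembly factors of complex I, and Atp5s, which carries an ATP synthase name, was kept apart.

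All cells carried P14, a transgenic T cell receptor that recognises the gp33 peptide of lymphocytic choriomeningitis virus. They came from 3 genotypes, which are P14 wild type (WT) mice, P14 mice with a Lin28 transgene (lin28Tg), and P14 mice with a doxycycline-induced let-7g transgene (let-7Tg). The let-7 microRNAs repress many mRNAs, and Lin28 proteins block the maturation of let-7, so that lin28Tg cells lack most mature let-7 and let-7Tg cells keep it. Each genotype was sampled as naive cells, as cells activated for 12 h and as cytotoxic T lymphocytes (CTLs) on day 5, with 3 libraries in each of the 9 groups and 27 in all. The methods of the study give both transgenic lines on a Rag2-/- background, mice of both sexes aged 6 to 10 weeks, and doxycycline in the drinking water of experimental mice, controls included. Naive cells had no stimulus. The 12 h cells were stimulated with anti-CD3 (2 μg/mL) and anti-CD28 (5 μg/mL) antibodies with doxycycline at 2 μg/mL in the medium. CTLs were raised with irradiated splenocytes and anti-CD3 (2 μg/mL), received IL-2 (100 U/mL) at 48 h and also had doxycycline at 2 μg/mL. The promoter that drives the Lin28 transgene is not given in the sources used here. Stage and culture change together in this design and cannot be told apart. Whether the stages were also prepared or sequenced in separate runs is not given in the sources used here.

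Oxidative phosphorylation is carried out by 5 complexes in the inner mitochondrial membrane. Complexes I and II pass electrons from NADH and succinate to ubiquinone, complex III passes them to cytochrome c, and complex IV passes them to oxygen. Complexes I, III and IV pump protons, and complex V, the ATP synthase, uses the gradient to make ATP. Most subunits are encoded in the nucleus and are built into complexes with a small core encoded by mitochondrial DNA (mtDNA), which encodes no part of complex II. Resting T cells draw largely on oxidative phosphorylation, and activated T cells build more mitochondria while glycolysis also rises.

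Levels are in FPKM (fragments per kilobase of transcript, scaled to the depth of the library), a unit that allows genes of different length to be compared. The libraries held between 13862706 and 23591069 reads on genes, and 10 reads on a transcript of 2 kb corresponded to 0.212 to 0.361 FPKM. Lin28b was listed at 67.9, 56.4 and 66.1 FPKM in naive lin28Tg libraries, 12.6, 10.2 and 9.94 at 12 h and 21.9, 14 and 22.4 in CTLs, against 0 to 0.059 in the 18 other libraries. The 7 CD8 T cell markers summed to 3500 to 3910 FPKM in naive lin28Tg, 4010 to 4600 in naive WT and 4170 to 4590 in naive let-7Tg cells. The labelled cell type was thus present in each, but the lin28Tg sums were the lowest, without overlap, with 2 of 7 markers below every WT library. Naive lin28Tg libraries stood apart by markers of other cells. The sum of 8 myeloid markers lay at 199 to 907 FPKM there, against 46 to 89.7 in WT and 34.6 to 81.6 in let-7Tg, with 8 of 8 above every WT library, and 5 of 6 erythroid markers were also above every WT library. Erythroid markers summed to 494 to 1990 FPKM in naive lin28Tg, 153 to 292 in WT and 1.92 to 38.7 in let-7Tg cells, where 5 of 6 were below every WT library. NK cell markers summed to 79.9 to 126, 28.2 to 54.2 and 19.7 to 37.9 FPKM in the same order. B cell markers summed to 30.4 to 35.4, 19 to 21.6 and 14.7 to 21.2 FPKM, with 2 of 6 above and 1 below every WT library in lin28Tg. Most of the B cell sum was Cd79b (27.7 to 31, 17.1 to 19.6 and 12.7 to 19.8 FPKM), and the gene below was Cd79a (1.07 to 1.43 against 1.65 to 2 in WT). CD4 T cell markers summed to 24.1 to 83.5, 12.9 to 23.7 and 14 to 19.3 FPKM, with 2 of 4 above and 2 below. Stromal markers summed lower in lin28Tg, at 41.8 to 48.4, 64.3 to 65.6 and 70.3 to 76.6 FPKM, with 3 of 6 above and 2 below. Most of the stromal sum was Pecam1, which was below (38.2 to 38.5 against 62.4 to 63.7 in WT), as was Pdgfrb. The genes above were Col3a1 (1.25 to 5.32 against 0.118 to 0.211), Dcn (0.705 to 2.21 against 0.069 to 0.154) and Epcam (1.22 to 1.75 against 0.555 to 1.03). In bulk RNA, fewer cells of a type and less RNA per cell cannot be told apart.

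Most of the respiratory chain was abundantly expressed at every stage. Over the 27 libraries 44 of the 99 genes had a mean of at least 100 FPKM, 39 lay between 10 and 100, 8 between 1 and 10, and 8 under 1. Atp5b, the catalytic beta subunit of the ATP synthase, was the most abundant member, followed by Atp5a1, which encodes the alpha subunit of the same hexamer. The 8 genes under 1 FPKM were tissue-restricted forms and copies: Cox8c, Cox6c2 and Ndufs6b had no read in any library, and Cox7b2, Ndufa4l2, Cox8b, Ndufa11b and Cox6a2 were barely detected. Where a tissue-restricted subunit has a common partner, the common form held nearly all of the signal. Cox4i2 was 0 to 3.62% of the summed FPKM of Cox4i1 and Cox4i2, Cox6a2 0 to 1.04% with Cox6a1, Cox6b2 0.22 to 4.57% with Cox6b1, Cox7a1 0.142 to 6.12% with Cox7a2, Cox8b 0 to 0.183% with Cox8a, and Ndufa4l2 0 to 0.102% with Ndufa4.

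The summed FPKM of the 90 nuclear genes of complexes I to V and cytochrome c was higher at 12 h than in naive cells of each genotype and changed less after that. In WT cells the sum was 8536, 8909.9 and 8358 in the naive libraries, 14812, 13802 and 15310 at 12 h and 13137, 13504 and 13613 in CTLs. In lin28Tg cells it was 9988, 10991 and 9952, then 14128, 15033 and 14563, then 13941, 13653 and 14315. In let-7Tg cells it was 8420.3, 9108 and 8116, then 14091, 13174 and 14599, then 11894, 12857 and 13466. No naive library reached the lowest 12 h library of its genotype, and the naive lin28Tg libraries lay above the naive libraries of both other genotypes.

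The mean sums of the complexes changed by different factors. From naive to 12 h the mean sum in WT cells changed 1.44-fold for complex I, 1.22-fold for complex II, 2.0-fold for complex III, 1.5-fold for complex IV, 1.97-fold for complex V and 4.94-fold for cytochrome c, and in each case the 3 libraries of one stage did not overlap those of the other. In lin28Tg cells the folds ran from 1.18 for complex II to 3.64 for cytochrome c, and in let-7Tg cells from 1.1 for complex II, where the libraries overlapped, to 4.82 for cytochrome c. The share of complex V in the summed FPKM of complexes I to V went from 35.9 ± 0.258% (mean ± SD, n = 3) in WT naive cells to 41.9 ± 0.414% at 12 h and 39.1 ± 0.838% in CTLs. Complex I went from 25.9 ± 0.141% to 22.1 ± 0.276% and 23.2 ± 0.118%. Complex III, the middle of the chain, took 9.95 ± 0.0881% in naive cells, 11.8 ± 0.353% at 12 h and 9.52 ± 0.259% in CTLs. No test was run on these sums, which are of FPKM before scaling between libraries and are led by the most abundant genes.

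Between stages, the 13 genes of mtDNA moved the other way in summed FPKM before scaling between libraries. Their summed FPKM in WT cells was 12309, 12931 and 12652 in naive libraries, 10033, 10775 and 10555 at 12 h and 17479, 15397 and 13967 in CTLs. The tests divided FPKM by scaling factors of 1.069, 1.04 and 1.041 in naive WT libraries and 0.8962, 0.9352 and 0.8895 at 12 h. Such division lowers the naive sums and raises the 12 h sums. The size of the fall at 12 h thus depends on scaling, and scaled sums were not taken. The ratio of nuclear to mtDNA-encoded sums was 0.681 ± 0.0178, 1.4 ± 0.106 and 0.868 ± 0.112 at the 3 stages, and it ran from 0.654 to 1.59 over all 27 libraries. The ratio at 12 h was 1.52 ± 0.0561 in lin28Tg and 1.44 ± 0.0634 in let-7Tg cells. By the test gene by gene, the direction was mixed: of 12 tested in WT cells at 12 h, mt-Nd1, mt-Nd2 and mt-Nd3 were higher, mt-Cytb and mt-Co1 were lower, and 7 were not called, with a median log2 fold change of -0.05. In lin28Tg against WT the mtDNA sum was 1.17-fold in naive cells, without overlap, and 0.843-fold in CTLs, with overlap. The median log2 fold changes of the 12 genes in these comparisons were 0.16 and -0.24.

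**Figure D1:**
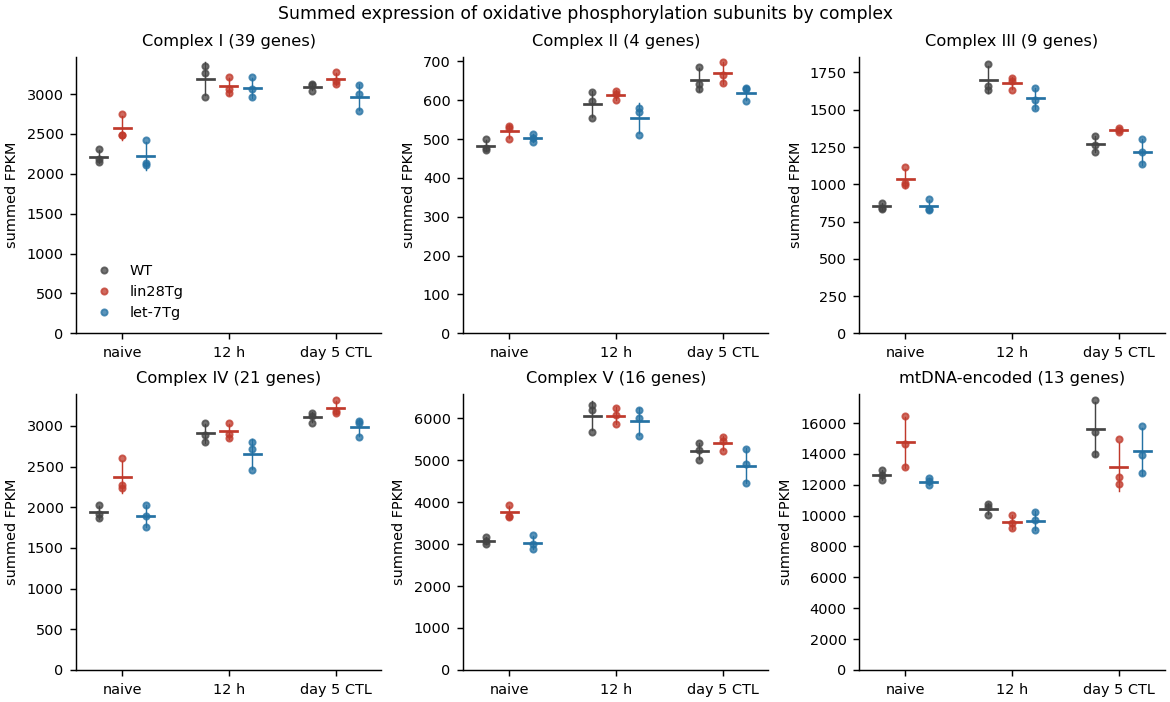
Summed FPKM (y axis, linear from 0) of the nuclear genes of complexes I to V and of the 13 mtDNA-encoded genes, by stage (x axis). Points are libraries coloured by genotype, horizontal bars are means and vertical lines ± 1 SD of 3 libraries. In WT cells, before scaling between libraries, complexes III and V are about doubled at 12 h (2.0-fold and 1.97-fold) while the mtDNA sum is lower (0.828-fold).

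To ask which genes changed on activation, 12 h cells were compared with naive cells within each genotype over 14453 genes, of which 92 were members. In WT cells 78 of the 92 were higher at 12 h and 6 were lower, where 34.6% of all genes tested were higher and 36.4% lower. The median log2 fold change of the members was 0.94. In lin28Tg cells 74 were higher and 9 lower (background 35.9% and 37.6%), with a median of 0.67, and in let-7Tg cells 75 were higher and 7 lower (background 34.4% and 34.9%), with a median of 0.93. In all 3 genotypes 72 members were called higher and 5 lower (Cox7a2l, Ndufv3, Ndufb2, Ndufaf3 and Cox6a2), and none was called higher in one genotype and lower in another. The libraries of the genotypes are separate, but 1 fit with a shared estimate of the spread gave all 3 tests. How many of all genes were called alike in the 3 genotypes was not counted. A gene was called at a Benjamini-Hochberg adjusted p of 0.05 in limma, and fold changes are on the log2(FPKM + 0.5) scale after scaling of the libraries. The p-values measure the spread between these libraries. Leaving libraries unscaled moved the median of all genes at 12 h from -0.047 to -0.183 in WT, from -0.035 to -0.238 in lin28Tg and from -0.033 to -0.184 in let-7Tg cells, and changes are relative to that centre. With replicate 1, which had the lowest myeloid sum, as the only naive lin28Tg library, 72 members were higher and 5 lower in lin28Tg cells at 12 h.

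Cytochrome c, the soluble carrier between complexes III and IV, rose most among the members in WT cells. Cycs (chromosome 6, 50562563 to 50566538 on GRCm38, minus strand) stood at 42.9, 39.3 and 33.6 FPKM in naive WT libraries and at 189, 182 and 201 at 12 h. In lin28Tg cells it went from 52, 55.6 and 53.4 to 182, 208 and 196, and in let-7Tg cells from 37.2, 31.9 and 34.5 to 169, 160.3 and 169.8. Every 12 h library lay far above every naive library, and the log2 fold changes were 2.51 ± 0.14 (± SE, adjusted p = 6.4e-13) in WT, 2.13 ± 0.14 in lin28Tg and 2.49 ± 0.14 in let-7Tg.

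In complex I, the NADH dehydrogenase, 30 of 37 tested genes rose in WT cells and 2 fell (median log2 fold change 0.78). Ndufa12 (chromosome 10, 94198720 to 94221443, plus strand), a subunit of the NADH-oxidising arm, stood at 55.4, 55.7 and 47.3 FPKM in naive WT cells and at 201, 183 and 206 at 12 h, a log2 change of 2.10 ± 0.12 (adjusted p = 4.58e-13). The naive and 12 h values of Ndufa12 did not overlap in any genotype. Ndufc2 of the membrane arm rose by 1.68 ± 0.10. Of the core subunits, Ndufs1, which holds iron-sulfur clusters, rose by 0.78 ± 0.09 and Ndufv1, which binds NADH, by 0.57 ± 0.09.

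Ndufv3, a small accessory subunit of the same NADH-oxidising arm as Ndufv1, fell. The gene (chromosome 17, 31520115 to 31531331, plus strand) stood at 80.3, 79.3 and 76.9 FPKM in naive WT libraries, 38, 30.5 and 41.2 at 12 h and 134, 122 and 107 in CTLs. In lin28Tg cells the values were 92, 98 and 85.4, then 33.1, 32.2 and 34.9, then 117, 104 and 103, and in let-7Tg cells 70.6, 70 and 81.1, then 30.2, 29.2 and 33.2, then 116, 109 and 94.8. The 12 h libraries were the lowest of each genotype with no overlap, and the log2 change at 12 h was -0.90 ± 0.11 (adjusted p = 9.64e-08) in WT, -1.17 ± 0.11 in lin28Tg and -1.01 ± 0.11 in let-7Tg. The other complex I gene that fell, Ndufb2 of the membrane arm, was listed at a low level for a subunit (5.29 ± 0.614 FPKM in naive WT cells, 3.2 ± 0.58 at 12 h, mean ± SD, n = 3), and its call in WT (-0.47 ± 0.20) was lost with a pseudocount of 0.1 FPKM and without naive replicate 1 or 2 or 12 h replicate 1 or 3.

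The assembly factors of complex I, which build the enzyme but are not in it, were mostly higher at 12 h. Of the 8 factors 7 rose in WT cells, and 1 fell. Ndufaf4 (chromosome 4, 24898083 to 24905001, plus strand) stood at 12.1, 13.7 and 12.5 FPKM in naive WT libraries and 49.8, 48 and 48.1 at 12 h, a log2 change of 2.10 ± 0.29 (adjusted p = 8.29e-07). Ndufaf2 rose by 2.38 ± 0.18 and Ndufaf6 by 1.56 ± 0.13. Of the exon bases of Ndufaf2, 65.6% are overlapped by a gene on the opposite strand in the annotation, and whether the counting used strand is not given in the sources used here, so its level is uncertain. Ndufaf3 went against the other 7. It stood at 11.6, 11.8 and 9.23 FPKM in naive WT cells and 5.19, 5.76 and 5.74 at 12 h (-0.70 ± 0.18, adjusted p = 0.00162), and it was called lower in all 3 genotypes.

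Complex II, succinate dehydrogenase, is shared with the tricarboxylic acid cycle. All 4 genes were called higher at 12 h in WT and lin28Tg cells and 3 of 4 in let-7Tg cells, but by unequal amounts. Sdhd, a membrane anchor, rose by 1.11 ± 0.11 in WT and Sdhb, the iron-sulfur subunit, by 0.99 ± 0.10. Sdha, the flavoprotein that oxidises succinate, stood at 339, 358 and 344 FPKM in naive and 383, 338 and 365 in 12 h WT libraries. Those deposited values overlap, and the call (0.27 ± 0.08, adjusted p = 0.0031) was lost without scaling.

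In complex III, the cytochrome bc1 complex, 9 of 9 genes were called higher in WT and 8 of 9 in each of the transgenic genotypes. In WT the call of Uqcrh, an acidic hinge subunit, was lost without scaling or with upper-quartile scaling (0.05 and 0.10), and without naive replicate 3 or 12 h replicate 1 or 3 (0.23, 0.25 and 0.21). Uqcrq (chromosome 11, 53427922 to 53430831, minus strand), a small subunit, stood at 99.3, 116 and 112 FPKM in naive and 351, 373 and 404 in 12 h WT libraries. That is a log2 change of 1.99 ± 0.10 (adjusted p = 1.77e-13), and no naive library of any genotype came near the 12 h libraries. The catalytic subunits Uqcrfs1, the Rieske iron-sulfur protein, and Cyc1, cytochrome c1, rose by 1.36 ± 0.09 and 1.29 ± 0.09, and the core subunit Uqcrc1 by 0.88 ± 0.09.

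Complex IV, cytochrome c oxidase, had members that moved in both directions. Of 16 tested genes 11 rose and 3 fell in WT cells (median 0.99). Among the common forms, Cox7b rose by 1.52 ± 0.09, Cox7c by 1.46 ± 0.11, Cox7a2 by 1.47 ± 0.12, Cox5a by 1.45 ± 0.11 and Cox4i1 by 0.60 ± 0.10. Cox7a2l went down. This gene (chromosome 17, 83501918 to 83517330, minus strand) encodes a protein related to Cox7a2. It stood at 230, 244 and 228 FPKM in naive WT libraries, 54.3, 61.8 and 57.2 at 12 h and 131, 135 and 132 in CTLs. In lin28Tg cells it was 207, 221 and 192, then 59.3, 54.8 and 55.2, then 119, 110.5 and 116. In let-7Tg cells it was 246, 272 and 236, then 54.6, 56.5 and 50.8, then 154, 151 and 129.8. The stages did not overlap in any genotype, and the log2 change at 12 h was -1.80 ± 0.07 in WT (adjusted p = 2.84e-15), -1.59 ± 0.07 in lin28Tg and -1.97 ± 0.07 in let-7Tg.

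Since Cox7a2 and Cox7a2l moved in opposite directions, their ratio turned over. Cox7a2l over Cox7a2 was 4.78 ± 0.684 (mean ± SD, n = 3) in naive WT cells, 0.488 ± 0.0405 at 12 h and 1.2 ± 0.1 in CTLs. In lin28Tg cells it was 3.25 ± 0.29, then 0.533 ± 0.0275, then 0.909 ± 0.138, and in let-7Tg cells 5.34 ± 1.06, then 0.558 ± 0.0299, then 1.33 ± 0.17. The other complex IV genes called lower in WT were the muscle forms Cox6a2 (-1.41 ± 0.43) and Cox7a1 (-0.99 ± 0.37), both at low levels. Cox6a2 was 3.38, 1.08 and 0.107 FPKM in naive and 0, 0 and 0.194 in 12 h WT libraries, and its call was lost without naive replicate 1. Cox7a1 was 1.57, 1.17 and 1.94 and then 0.974, 0.164 and 0.35, and its call was lost without naive replicate 3 or 12 h replicate 2 or 3.

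In complex V, the ATP synthase, 16 of 16 genes were called higher in WT and let-7Tg cells and 15 of 16 in lin28Tg cells. Atp5b (chromosome 10, 128083273 to 128090391, plus strand) stood at 741, 798 and 748 FPKM in naive and 2061, 1833 and 2047 in 12 h WT libraries, without overlap (1.59 ± 0.10, adjusted p = 2.99e-12). Atp5a1 rose by 1.06 ± 0.09 and Atp5j, of the peripheral stalk, by 1.26 ± 0.07. The ring of c subunits, which turns as protons pass, is encoded by 3 genes for the same mature protein. Of these Atp5g1 rose by 1.75 ± 0.13, Atp5g3 by 1.60 ± 0.12 and Atp5g2 by 0.91 ± 0.08 in WT cells. Over the 27 libraries Atp5g2 made up 42.7 to 60.8% of their summed FPKM and Atp5g1 3.73 to 9.69%. Atp5g2 was above Atp5g3 in every library except the 3 of 12 h lin28Tg cells, where Atp5g3 took 47.1, 49.6 and 49.9%.

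**Figure D2:**
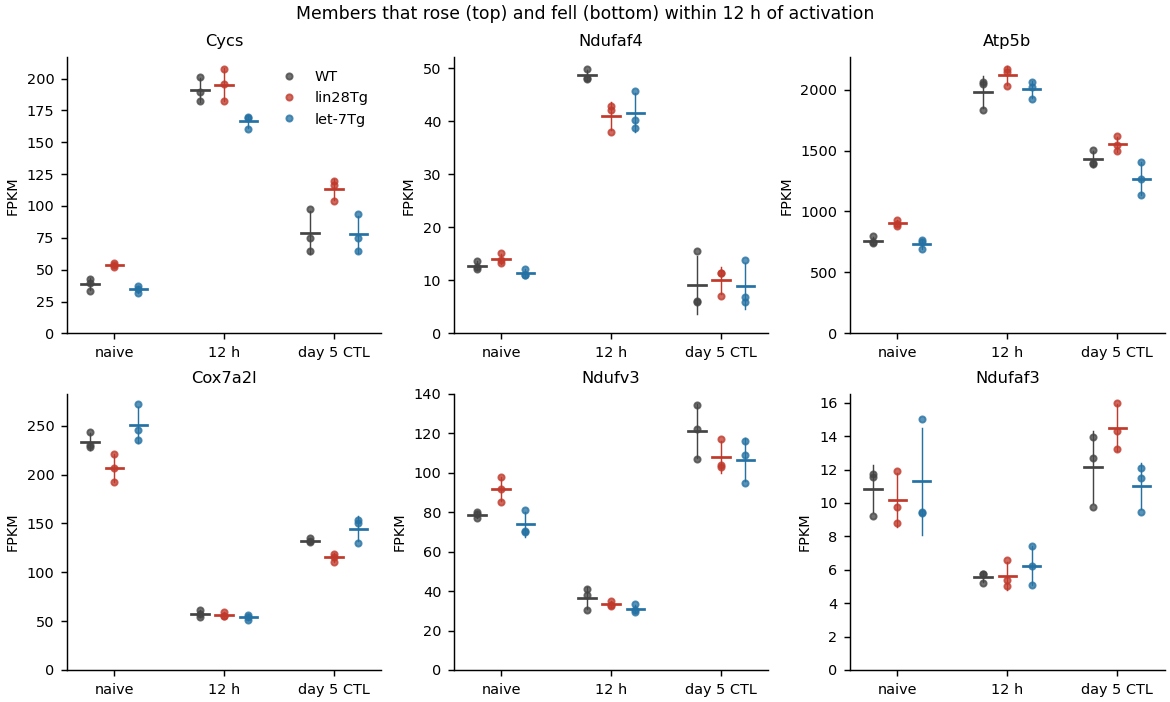
FPKM (y axis, linear from 0) of 6 members at the 3 stages (x axis), with Cycs, Ndufaf4 and Atp5b in the upper row and Cox7a2l, Ndufv3 and Ndufaf3 in the lower row. Points are libraries coloured by genotype, horizontal bars are means and vertical lines ± 1 SD of 3 libraries; in each genotype the upper genes are highest at 12 h and the lower genes are lowest there.

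**Figure D3:**
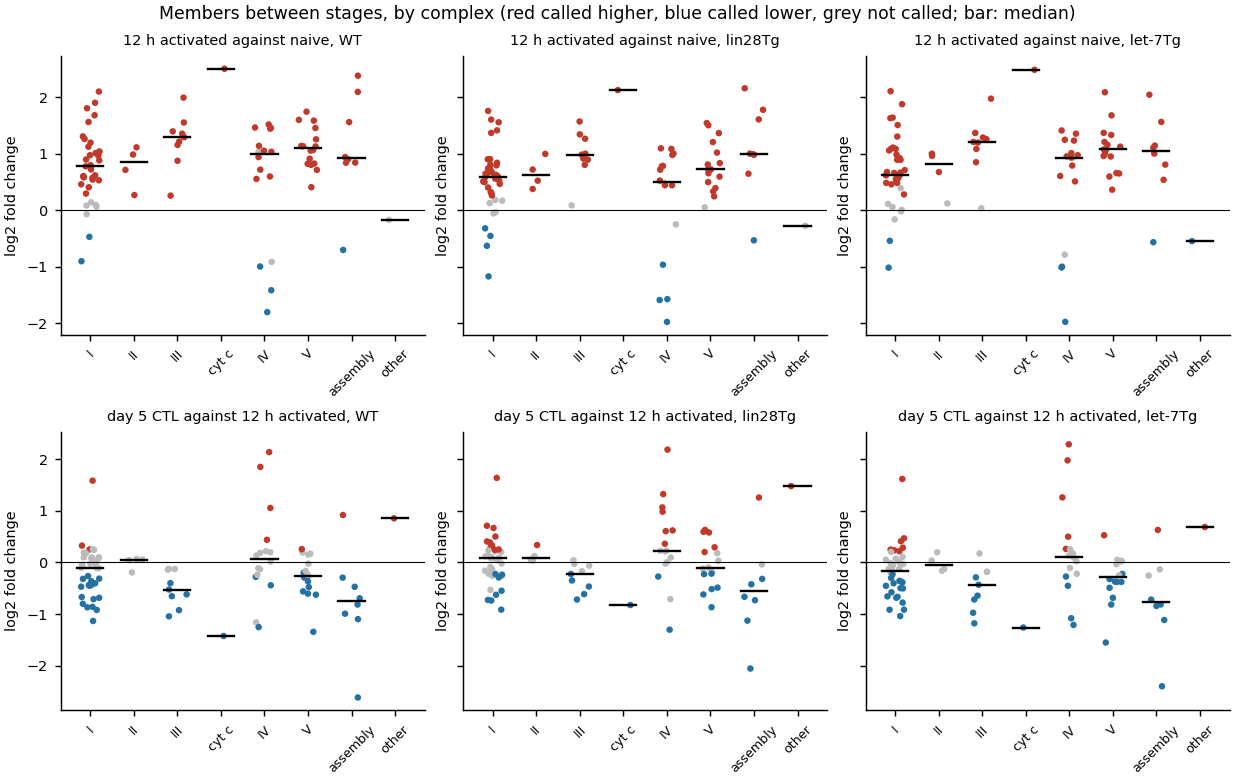
Log2 fold change (y axis) of each tested member by complex (x axis), for 12 h against naive cells in the upper row and CTLs against 12 h cells in the lower row, with a panel for each genotype. Points are genes, red where called higher, blue where called lower and grey where not called, and bars are medians; in WT the median of complex III goes from 1.29 in the first comparison to -0.53 in the second, and that of complex IV from 0.99 to 0.08.

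The stretch before the transcription start is shown for members that stood at opposite ends of the 12 h response: Cycs, Ndufaf2, Ndufaf4 and Ndufa12, which rose, and Cox7a2l, Ndufv3, Ndufaf3 and Ndufb2, which fell in all 3 genotypes. Each line gives the 150 bases before the start from RefSeq on GRCm38.p6, 5′ to 3′ on the strand of the gene. The starts are those of RefSeq and can differ from the gene bounds given above, which are from GENCODE: the windows of Cox7a2l and Ndufa12 lie inside those bounds. Capitals mark the core of an NRF1 site (CGCATGCG) or a GC box (GGGCGGG or its complement CCCGCCC), the motifs found in these windows among the 5 that were searched.
Cycs, chr6:50566570-50566719, minus strand: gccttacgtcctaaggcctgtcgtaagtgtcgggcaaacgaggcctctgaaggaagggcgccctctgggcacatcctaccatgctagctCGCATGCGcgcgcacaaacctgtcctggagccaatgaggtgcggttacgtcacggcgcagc
Ndufaf2, chr13:108158626-108158775, minus strand: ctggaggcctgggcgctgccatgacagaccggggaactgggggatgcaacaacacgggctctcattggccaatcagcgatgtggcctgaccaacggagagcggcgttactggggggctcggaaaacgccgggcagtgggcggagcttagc
Ndufaf4, chr4:24897933-24898082, plus strand: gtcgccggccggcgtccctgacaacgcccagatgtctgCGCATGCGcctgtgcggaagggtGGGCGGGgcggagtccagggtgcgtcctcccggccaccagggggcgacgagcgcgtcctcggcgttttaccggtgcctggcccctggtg
Ndufa12, chr10:94198885-94199034, plus strand: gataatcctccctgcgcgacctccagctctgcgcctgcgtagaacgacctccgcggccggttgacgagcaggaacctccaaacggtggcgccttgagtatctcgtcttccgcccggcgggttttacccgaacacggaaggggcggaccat
Cox7a2l, chr17:83514334-83514483, minus strand: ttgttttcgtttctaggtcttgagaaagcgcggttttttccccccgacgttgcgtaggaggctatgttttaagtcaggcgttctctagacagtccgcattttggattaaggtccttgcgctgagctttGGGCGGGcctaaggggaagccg
Ndufv3, chr17:31519965-31520114, plus strand: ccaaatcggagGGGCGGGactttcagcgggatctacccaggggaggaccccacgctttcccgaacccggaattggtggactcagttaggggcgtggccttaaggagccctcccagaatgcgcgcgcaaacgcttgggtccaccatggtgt
Ndufaf3, chr9:108567437-108567586, minus strand: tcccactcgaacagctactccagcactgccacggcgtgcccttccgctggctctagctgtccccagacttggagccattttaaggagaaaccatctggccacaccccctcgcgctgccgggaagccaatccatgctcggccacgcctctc
Ndufb2, chr6:39592415-39592564, plus strand: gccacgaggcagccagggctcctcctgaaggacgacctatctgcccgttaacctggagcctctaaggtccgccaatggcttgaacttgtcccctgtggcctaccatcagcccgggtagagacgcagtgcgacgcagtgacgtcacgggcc
NRF1 is a factor known to act on many nuclear respiratory genes. Its core lay 61 to 54 bases before the start in Cycs and 112 to 105 bases before it in Ndufaf4. A GC box lay 89 to 83 bases before the start of Ndufaf4, 22 to 16 before that of Cox7a2l and 139 to 133 before that of Ndufv3. The searched letters are absent from the windows of Ndufaf2, Ndufa12, Ndufaf3 and Ndufb2.

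Of the 99 members 77 matched a RefSeq promoter, 2 of them by an older symbol. Over 250 bases before to 50 after the start, the NRF1 core (CGCATGCG, its own complement) was in 11 of the 77, or 14.3%, and in 1.91% of the 27025 promoters of all genes. On either strand, the Ets core CCGGAAG was in 17 (22.1%, against 9.12% of all promoters), the YY1 letters AAGATGG in 11 (14.3% against 6.48%), the GC box GGGCGGG in 28 (36.4% against 25.8%) and the E box CACGTG in 6 (7.79% against 7.24%). Of 59 promoters of genes higher at 12 h in all 3 genotypes 11 held the NRF1 core, and of 4 promoters of genes lower in all 3 none did, while the GC box was in 19 of the 59 (32.2%) and in 3 of the 4. A match is a description of letters and not a bound site, and the few promoters of falling genes allow no comparison.

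CTLs were then compared with 12 h cells. In WT cells 10 of 92 members were higher in CTLs and 43 lower, where 33.6% of all genes were higher and 33.7% lower, with a median log2 fold change of -0.20. In let-7Tg cells 15 were higher and 42 lower (background 33.4% and 33.7%, median -0.19). In lin28Tg cells 25 were higher and 28 lower (background 33.5% and 32.7%, median -0.01). The share of higher calls depended on scaling, and without it 25 were higher and 35 lower in WT and 27 higher and 35 lower in let-7Tg. The shared calls were 27 genes lower in all 3 genotypes, 10 higher in all 3, and 20 called in none. Shared calls over all genes were not counted.

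Both comparisons of stage use the 12 h libraries, so a low or high 12 h value enters both. Cycs, after its 12 h peak, stood at 64.6, 74.7 and 97.8 FPKM in WT CTLs, 104, 119 and 116 in lin28Tg and 64.8, 75.2 and 93.6 in let-7Tg CTLs. Every CTL library was below the 12 h libraries and above the naive libraries of its genotype (-1.43 ± 0.14 against 12 h in WT, adjusted p = 9.66e-09). Ndufaf4 stood at 5.93, 6.14 and 15.5 in WT CTLs (-2.62 ± 0.29, adjusted p = 4.01e-08). Replicate 3 was the highest of the WT CTLs by a wide margin, yet all 3 lay under the 12 h values, and 7 of the 8 assembly factors of complex I were called lower in WT CTLs.

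Complex III had 6 of 9 genes lower and none higher in WT CTLs (median -0.53). Cyc1 changed by -0.93 ± 0.09 and Uqcrq, at 211, 199 and 191 FPKM in WT CTLs, by -1.04 ± 0.10. In complex I 17 of 37 were lower and 3 higher. Ndufs7, of the ubiquinone-binding part, changed by -0.92 ± 0.12 and Ndufb6, of the membrane arm, by -0.87 ± 0.12. Of the exon bases of Ndufb6, 39% are overlapped by a gene on the opposite strand, so its level is uncertain in the same way as that of Ndufaf2. Ndufa5, of the peripheral arm, changed by -0.86 ± 0.12 in WT and -1.04 ± 0.12 in let-7Tg cells, and Ndufb10, of the membrane arm, was called higher in let-7Tg cells (0.41 ± 0.12). In complex V 9 of 16 were lower and 1 higher, with Atp5g1 at -1.34 ± 0.13, Atp5b at -0.60 ± 0.10 and Atp5a1 at -0.56 ± 0.09. None of the 4 genes of complex II was called in WT or let-7Tg cells, and Sdhc was called higher in lin28Tg cells (0.34 ± 0.10).

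The genes of complex IV moved in both directions. In WT CTLs 4 of 16 tested genes were higher, 3 lower, and the median was 0.08. Ndufa4, a subunit first assigned to complex I, fell from 310.3, 283 and 313 FPKM at 12 h to 143, 145 and 129.5 (-1.25 ± 0.12, adjusted p = 4.12e-09). Cox7a2l rose by 1.05 ± 0.07 (adjusted p = 2.31e-11), to a level between the 12 h and the naive cells. Cox8a, a common form, rose by 0.44 ± 0.10. The muscle form Cox7a1 was 0.974, 0.164 and 0.35 FPKM at 12 h and 4.4, 5.25 and 2.38 in WT CTLs, without overlap (2.14 ± 0.37), and Cox6b2, a testis form, was 1.35, 1.13 and 1.34 and then 8.66, 9.96 and 2.86 (1.85 ± 0.42). Both stayed at a small fraction of their common partners. For Cox4i1 the call in WT (-0.28 ± 0.10) was lost without scaling, under which Cox5a (0.14 ± 0.11 here, not called) was called higher.

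Ndufv3 and Ndufaf3, which had fallen at 12 h, turned as Cox7a2l did. Ndufv3 was higher in CTLs than at 12 h by 1.58 ± 0.11 (adjusted p = 1.67e-11), and its WT CTL libraries lay above its naive ones. Ndufaf3, an assembly factor, rose by 0.92 ± 0.18 against 12 h. Ndufb3, of the membrane arm, rose by 0.33 ± 0.12, Atp5j2, of the membrane part of the synthase, by 0.26 ± 0.11, and Atp5s by 0.85 ± 0.20. The calls of Ndufb3 and Atp5j2 in WT were lost without 12 h replicate 2 or CTL replicate 2 or 3, and that of Atp5j2 also without 12 h replicate 3. Ndufv3, Ndufaf3, Ndufb3, Atp5j2 and Atp5s, with Cox7a2l, Cox7a1, Cox6b2, Cox8a and Ndufa13, make up the 10 that were higher in CTLs in all 3 genotypes.

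The genotypes were compared at each stage to see whether the level of let-7 goes with that of the chain. In naive cells, over 13277 genes of which 90 were members, 37 members were higher in lin28Tg than in WT cells and none was lower, where 19.0% of all genes were higher and 15.8% lower. The median of the members was 0.20 and that of all genes -0.04. By complex, 11 of 36 tested genes were higher in complex I, 2 of 4 in complex II, 5 of 9 in complex III, 8 of 15 in complex IV and 10 of 16 in complex V, and Cycs was called too, while none of the 8 assembly factors was. Median log2 fold changes were 0.19 for complex I, 0.19 for complex II, 0.16 for complex III, 0.31 for complex IV, 0.27 for complex V and 0.02 for the assembly factors. Without one WT library the count fell to 23, 24 or 18 (replicates 1, 2 and 3), and without lin28Tg replicate 2 to 18. Calls over all genes fell as well, from 2526 higher and 2102 lower. They were 2286 and 1847, 1828 and 1180, and 1892 and 1246 without WT replicates 1, 2 and 3, and 1760 and 1255 without lin28Tg replicate 2. The myeloid sum was 199 FPKM in replicate 1, 907 in replicate 2 and 493 in replicate 3 of naive lin28Tg cells. With replicate 1 as the only lin28Tg library, the median of the members was 0.22, and the calls of that fit are counted with the other runs below. The part of other cells in these differences was not tested.

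Cox6c, a common subunit of complex IV, stood at 70.5, 69.8 and 65 FPKM in naive WT, 92, 99.6 and 92.8 in lin28Tg and 73, 70.3 and 66.9 in let-7Tg libraries. Every lin28Tg library lay above every other naive library (0.41 ± 0.06 against WT, adjusted p = 0.00151). Cox5a, a subunit on the matrix side of complex IV, stood at 26.2, 24.6 and 23.4 in WT, 36.9, 45.6 and 33.8 in lin28Tg and 24.5, 25.7 and 22.2 in let-7Tg (0.57 ± 0.12, adjusted p = 0.00516). Cycs was 1.39-fold higher by the group means (0.42 ± 0.09, adjusted p = 0.00607), and its 3 lin28Tg values were above all other naive values.

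Of the ATP synthase, Atp5f1, of the peripheral stalk, was 94.4, 96.4 and 85.9 FPKM in WT and 125, 140.1 and 125 in lin28Tg libraries, without overlap (0.43 ± 0.07, adjusted p = 0.00281). Atp5j, of the same stalk, was higher by 0.33 ± 0.06. In complex III the small subunits Uqcr10 and Uqcr11 were higher by 0.40 ± 0.10 and 0.50 ± 0.12. In complex I Ndufa12 was higher by 0.49 ± 0.11 and Ndufb9 by 0.35 ± 0.08, and in complex II Sdhb by 0.29 ± 0.08 and Sdhd by 0.31 ± 0.09. Cox7a2l was among the members with the lowest values (-0.24 ± 0.08, adjusted p = 0.0503) and was not called. Lower values were seen also for Cox6b2 (-0.28 ± 0.39) and Ndufb2 (-0.17 ± 0.12), and a high value for Cox6a2 (0.58 ± 0.54), none of them called. Part of the reads of Ndufb9 can come from a gene that overlaps 19.5% of its exon bases on the same strand.

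In naive let-7Tg cells none of 90 members was called against WT by limma (background 0.301% higher and 0.633% lower), 11 had an unadjusted p under 0.05, and the median was -0.05. The outermost values were those of Ndufb7 (-0.28 ± 0.08), Cox8a (-0.27 ± 0.08), Cox5b (-0.26 ± 0.09), Ndufa5 (0.23 ± 0.10), Ndufaf6 (0.28 ± 0.09) and Ndufaf2 (0.34 ± 0.12). Against let-7Tg, naive lin28Tg cells had 43 members higher and 2 lower (background 23.0% and 21.2%, median 0.25), with the same lin28Tg libraries as in the comparison with WT. Cycs differed by 0.62 ± 0.09 (adjusted p = 0.000568), Cox8a by 0.59 ± 0.08 and Ndufb7, of the membrane arm of complex I, by 0.56 ± 0.08. The 2 lower genes were Cox7a2l (-0.28 ± 0.08, adjusted p = 0.0205) and the assembly factor Ndufaf6 (-0.26 ± 0.09, adjusted p = 0.0449). With replicate 1 as the only lin28Tg library the count was 20 in place of 45, and the median 0.28. The CD8 T cell, erythroid, NK cell, myeloid, B cell, CD4 T cell and stromal sums given above did not overlap between naive lin28Tg and let-7Tg libraries. Their part in the result was not tested.

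Cox4i2, the form of Cox4 known from lung and from vessel walls, varied widely among the naive lin28Tg libraries. It stood at 0.261, 0.194 and 0.194 FPKM in naive WT, 0.618, 13.8 and 6.58 in lin28Tg and 0.353, 0.195 and 0.296 in let-7Tg libraries. Replicates 2 and 3 of lin28Tg, with myeloid sums of 907 and 493 FPKM, were its highest, and replicate 1, with 199, was near the other genotypes. The gene did not pass the filter for the naive fit, where too few libraries held 10 reads. In 12 h lin28Tg cells against naive ones it was called lower (-1.97 ± 0.52), a call that ended with naive replicate 1 alone (0.07, adjusted p = 0.884 in limma).

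**Figure D4:**
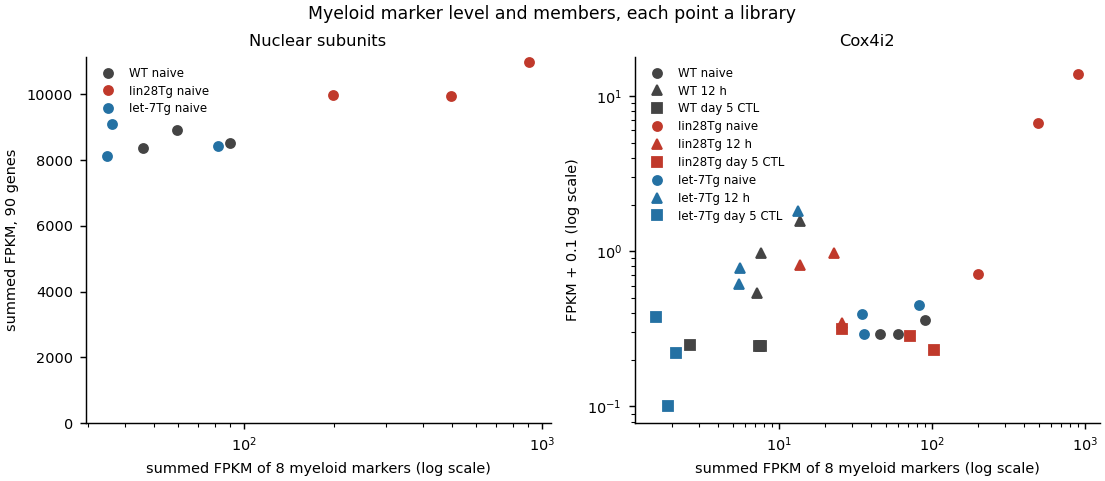
Left, summed FPKM of the 90 nuclear genes (y axis) against the summed FPKM of 8 myeloid markers (x axis, log scale) in the 9 naive libraries, and right, FPKM + 0.1 of Cox4i2 (y axis, log scale) against the same marker sum in all 27 libraries. Points are libraries, with colour for genotype and shape for stage; the naive lin28Tg libraries lie at 199, 493 and 907 FPKM of markers, and Cox4i2 is highest in the latter pair.

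At 12 h few members were called between a transgenic genotype and WT. Over 12239 genes, of which 90 were members, 1 member was lower in lin28Tg than in WT cells and none higher (background 6.1% higher and 2.39% lower, median -0.05). This was Atp5e, the epsilon subunit in the central stalk of the synthase, at 257, 242 and 267 FPKM in WT and 204, 215 and 196 in lin28Tg libraries, without overlap (-0.33 ± 0.07, adjusted p = 0.0229). The call was lost without WT replicate 1 or 3 or any of the lin28Tg libraries. Myeloid markers summed to 13.8 to 25.9 FPKM in the 12 h lin28Tg libraries against 7.14 to 13.8 in WT, with 4 of 8 above every WT library, and erythroid markers to 83.3 to 693 against 26.1 to 103, with 2 of 6 above every WT library. NK cell markers summed to 51 to 54.8 against 23.2 to 42 (3 of 6 above) and B cell markers to 2.94 to 3.21 against 1.46 to 1.86 (2 of 6 above). CD8 T cell markers summed lower in lin28Tg, at 971 to 1150 against 1190 to 1360 (2 of 7 below). CD4 T cell and stromal sums overlapped. The part of all these markers in the result was not tested. In let-7Tg against WT, 1 member was lower and none higher (background 1.36% and 1.87%, median -0.12). This was Cox7a2, at 117, 115 and 122 FPKM in WT and 103, 96.2 and 91 in let-7Tg libraries (-0.32 ± 0.07, adjusted p = 0.0435). These libraries do not overlap. Ndufb4c (-0.58 ± 0.17), which has a copy of identical sequence elsewhere, Ndufaf2 (-0.48 ± 0.16) and Ndufaf7 (-0.46 ± 0.14) had lower values but were not called. Erythroid markers summed to 0.774 to 4.34 FPKM in the 12 h let-7Tg libraries against 26.1 to 103 in WT, with 4 of 6 below every WT library, and their part in the result was not tested. No member was called when any single WT library, or let-7Tg replicate 2 or 3, was left out, and leaving out let-7Tg replicate 1 gave 2 calls. Over all genes, calls fell from 167 higher and 229 lower to at most 44 and 83 in the runs without a member call. They rose to 317 and 393 without let-7Tg replicate 1.

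Between lin28Tg and let-7Tg cells at 12 h, 9 members were higher and 7 lower (background 16.3% and 14.5%, median 0.06), shares no larger than those of all genes. The count fell to 2 without lin28Tg replicate 2 or 3, to 6 without lin28Tg replicate 1 and to 8 without let-7Tg replicate 1. Calls over all genes fell from 1996 higher and 1779 lower to 1300 and 965 without lin28Tg replicate 2 and 1367 and 995 without replicate 3. They were 1635 and 1385 without lin28Tg replicate 1 and 1808 and 1521 without let-7Tg replicate 1. Genes of the c ring were called in both directions. Atp5g3 stood at 423, 477 and 464 FPKM in lin28Tg, 405, 385 and 455 in WT and 346, 312 and 359 in let-7Tg libraries. Lin28Tg was higher than let-7Tg by 0.43 ± 0.10 (adjusted p = 0.0134), while Atp5g2 (-0.26 ± 0.08, adjusted p = 0.0357) and Atp5g1 (-0.23 ± 0.08, adjusted p = 0.0464) were lower. As a share of the summed FPKM of the 3 genes, Atp5g3 was 44.4 ± 1.19% (mean ± SD, n = 3) in WT, 48.9 ± 1.55% in lin28Tg and 37.3 ± 1.16% in let-7Tg cells, and no library of one genotype overlapped another. Ndufa2, of the NADH arm of complex I, was also lower (-0.27 ± 0.06, adjusted p = 0.00844), and Sdhd (0.39 ± 0.11) and Uqcr10 (0.36 ± 0.10) were higher. Of the other called genes, Cox5b (0.37 ± 0.10) and the assembly factor Ndufaf7 (0.54 ± 0.14) were higher, and Ndufa5 (-0.25 ± 0.07) and the assembly factor Ndufaf8 (-0.34 ± 0.10) were lower. Erythroid sums (83.3 to 693 against 0.774 to 4.34 FPKM) and NK cell sums (51 to 54.8 against 11.9 to 35.1) also did not overlap between these groups. Nor did myeloid sums (13.8 to 25.9 against 5.48 to 13.2) and B cell sums (2.94 to 3.21 against 1.59 to 1.83). CD8 T cell sums were lower in lin28Tg, without overlap (971 to 1150 against 1320 to 1380), and CD4 T cell and stromal sums overlapped. Much of the NK cell sum was Eomes (31.1 to 38.5 against 8 to 28.9 FPKM). The part of these markers in the result was not tested.

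In CTLs, over 13030 genes of which 90 were members, 3 members were higher in lin28Tg than in WT and none lower (background 2.03% and 2.31%, median 0.14). They were Ndufb9 (0.32 ± 0.07, adjusted p = 0.0354), Cox5a (0.52 ± 0.11, adjusted p = 0.0372) and Atp5f1 (0.38 ± 0.09, adjusted p = 0.0438). Cox5a stood at 60.8, 77 and 77.3 FPKM in WT and 96.8, 103 and 97.5 in lin28Tg CTLs, and Atp5f1 at 208, 229 and 223 and 266, 288 and 271, both without overlap. Same-numbered CTL libraries deviated together, and with the replicate number as a block 11 members were higher and none lower. The background above is that of the fit without the block. Cycs had the highest log2 fold change of the members (0.59 ± 0.19, adjusted p = 0.125) with libraries that did not overlap, at 64.6, 74.7 and 97.8 FPKM in WT and 104, 119 and 116 in lin28Tg, and it was called with the block (adjusted p = 0.011). Ndufab1, the acyl carrier protein of complex I, gave 0.41 ± 0.16 and was not called. Leaving out any single library of the 6 left 1 call or none. Over all genes those runs called 59 to 276 higher and 83 to 330 lower, against 265 and 301 with every library. No member was called in let-7Tg against WT CTLs by limma (background 0.576% and 0.353%, median -0.12), where 15 had an unadjusted p under 0.05, and with the replicate block 1 was called lower.

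Lin28Tg and let-7Tg CTLs, which share those libraries, differed in more genes. Of the 90 members 31 were higher in lin28Tg and none was lower (background 10.8% and 10.7%, median 0.21), 10 of them in complex I, 2 in complex II, 5 in complex III, 5 in complex IV, 5 in complex V and 3 assembly factors, with Cycs. Without scaling 21 were higher and 3 lower. Atp5f1 stood at 266, 288 and 271 FPKM in lin28Tg and 170.1, 186 and 193 in let-7Tg CTLs (0.70 ± 0.09, adjusted p = 0.000912). Uqcrq stood at 238, 255 and 238 and 149, 166 and 189 (0.65 ± 0.10, adjusted p = 0.00236), and Cycs at 104, 119 and 116 and 64.8, 75.2 and 93.6 (0.66 ± 0.19, adjusted p = 0.0351). All 3 genes were without overlap between the groups. Core subunits differed too, Atp5b by 0.40 ± 0.10, Cox5a by 0.58 ± 0.11 and Ndufs1 by 0.43 ± 0.10. Also called higher were Atp5c1, of the central stalk (0.38 ± 0.07), and the assembly factors Ndufaf5 (0.50 ± 0.10) and Ndufaf7 (0.46 ± 0.11). The count was 15 when lin28Tg replicate 2 was left out and 14 when lin28Tg replicate 3 was. Leaving out let-7Tg libraries gave 14 (replicate 1) and 13 (replicate 2). Over all genes these runs called 862, 856, 840 and 895 higher in the same order, against 1413 with every library. The lower calls were 994, 939, 818 and 855, against 1399. With replicate 1 as the only lin28Tg library none was called and the median was still 0.21. Myeloid markers summed to 25.6 to 103 FPKM in lin28Tg CTLs against 2.62 to 7.63 in WT, with 2 of 8 above every WT library, Fcer1g and Itgam, while Lyz2 was at 0 to 0.0375 and Csf1r at 0 to 0.021 FPKM in lin28Tg CTLs. NK cell markers summed to 69.2 to 146 FPKM against 59.5 to 70.1 in WT. In let-7Tg CTLs the myeloid sum was 1.56 to 2.1 and the NK cell sum 19.8 to 46.2 FPKM, both without overlap with lin28Tg. CD8 T cell markers summed to 2010 to 2290 FPKM in lin28Tg, 2310 to 2580 in WT and 2620 to 2830 in let-7Tg CTLs. In lin28Tg 3 of 7 were below every WT library. Stromal sums, mostly of Pecam1, were 3.27 to 8.49, 13 to 19.2 and 20.3 to 35.5 FPKM in the same order. In both sets lin28Tg was the lowest, without overlap, while B cell, CD4 T cell and erythroid sums overlapped. Most of the NK cell sum in CTLs was Eomes, at 67.7 to 142 FPKM in lin28Tg, 50.1 to 69.3 in WT and 15.9 to 44.6 in let-7Tg. Ncr1 was at 0 to 0.0305 and Klra4 and Klra8 at 0 FPKM in lin28Tg CTLs. The paper lists Eomes among the terminal differentiation genes of lin28Tg CTLs. The part of these markers in the result was not tested.

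**Figure D5:**
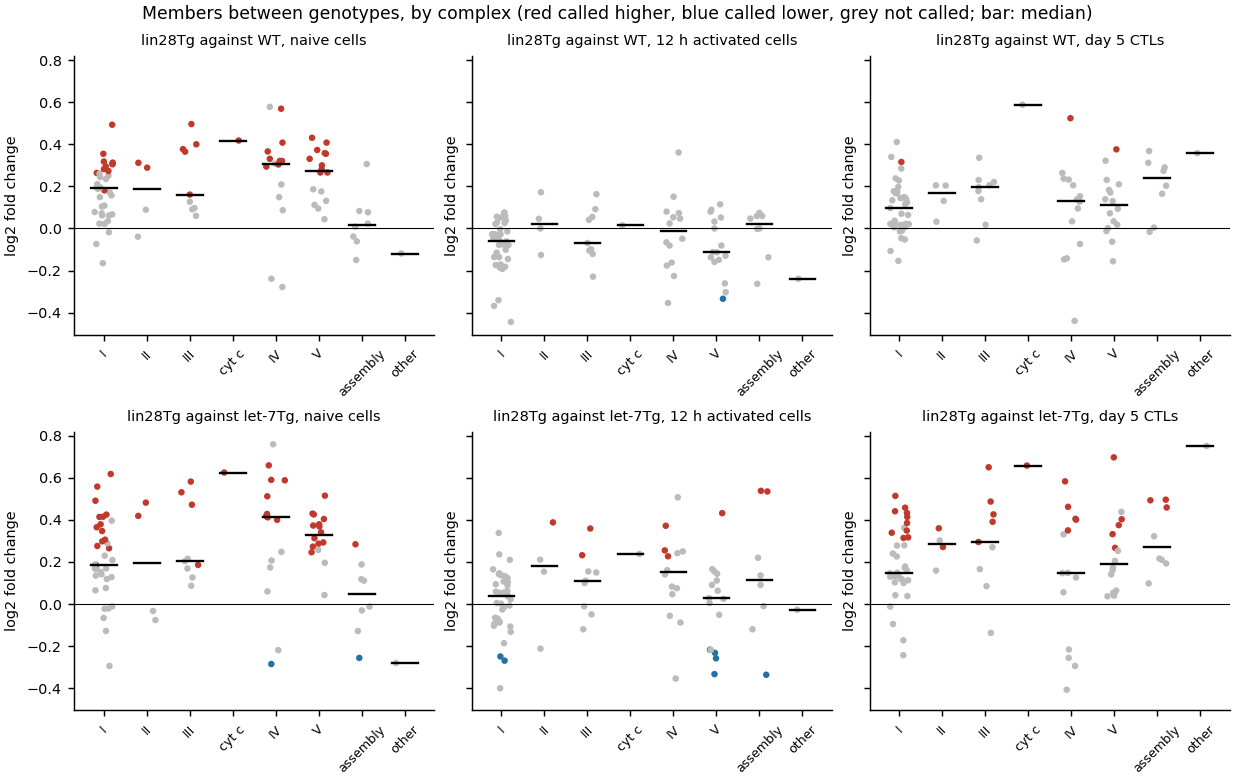
Log2 fold change (y axis) of each tested member by complex (x axis), for lin28Tg against WT in the upper row and lin28Tg against let-7Tg in the lower row, with a panel for each stage. Points are genes, red where called higher, blue where called lower and grey where not called, and bars are medians; the members lean above 0 in naive lin28Tg cells (medians 0.20 and 0.25) and in lin28Tg against let-7Tg CTLs (median 0.21), and lie around 0 at 12 h.

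Whether the genotype difference itself changed with stage was tested as an interaction. The difference between lin28Tg and let-7Tg on the signed log2 scale was lower at 12 h than in naive cells for 9 members and higher for 1 (background 7.61% lower and 5.78% higher, median -0.18). The strongest was Atp5e (-0.70 ± 0.13, adjusted p = 0.000979), which stood at 202, 223 and 203 FPKM in naive lin28Tg and 135, 159 and 144 in naive let-7Tg cells, and at 204, 215 and 196 and 232, 239 and 248 at 12 h. The order of the genotypes for Atp5e was thus opposite at the 2 stages, without overlap at either. Cox7a2l (0.39 ± 0.10, adjusted p = 0.0139) was the gene that went up. The counts from other runs that follow are of members only, without the share of all genes in that run. With the replicate block 20 were called, 17 of them lower, and 6 were called when one of these was left out, naive lin28Tg replicate 2, naive let-7Tg replicate 1, 12 h lin28Tg replicate 1 or 12 h let-7Tg replicate 3, while 16 were called without 12 h let-7Tg replicate 2 and 3 with naive lin28Tg replicate 1 alone.

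From 12 h to CTLs the same signed difference rose for 9 of 92 members, a share near that of all genes, and fell for none (background 9.54% higher and 11.3% lower, median 0.21). Among them were Ndufs1 (0.54 ± 0.13, adjusted p = 0.00385), Atp5f1 (0.55 ± 0.13, adjusted p = 0.00425), Uqcrq (0.56 ± 0.15, adjusted p = 0.00798) and Atp5g1 (0.68 ± 0.18, adjusted p = 0.00793). Without scaling it rose for 9 and fell for 2. With the replicate block 28 were called, 27 of them higher, but the background above is that of the fit without the block. The count was 25 without 12 h let-7Tg replicate 2 and 22 without CTL let-7Tg replicate 3, and none was called with CTL lin28Tg replicate 1 alone.

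Other mitochondrial genes gave the setting of these changes. Among all genes tested in WT cells, 34.6% were higher at 12 h and 36.4% lower, and 33.6% were higher in CTLs than at 12 h and 33.7% lower. Of 77 tested mitochondrial ribosome proteins, which translate the mtDNA-encoded subunits, 74 were higher at 12 h in WT cells and 1 lower (median 1.29), and 64 were lower in CTLs and 1 higher (median -0.77). Mrps6, of the small subunit, changed by 2.83 ± 0.12 (adjusted p = 1.35e-14) at 12 h and then by -2.51 ± 0.12 (adjusted p = 1.04e-13) in CTLs. Of 20 genes of the tricarboxylic acid cycle and pyruvate entry, 18 were higher at 12 h and 1 lower (median 0.57), then 15 lower and 1 higher in CTLs (median -0.41). Dlat, a subunit of pyruvate dehydrogenase, changed by 1.76 ± 0.12 (adjusted p = 1.61e-11) and then by -0.92 ± 0.12 (adjusted p = 6.17e-07). Of 7 genes that carry adenine nucleotides and phosphate across the mitochondrial membranes or restrain the synthase, 6 were higher at 12 h and none lower (median 1.22), with Slc25a5, an ADP/ATP carrier, higher by 2.17 ± 0.10 (adjusted p = 4.12e-14). In CTLs 2 of the 7 were higher and 3 lower, a list too short to tell from the shares of all genes. Atpif1, the inhibitor of the synthase, was higher by 2.12 ± 0.17 (adjusted p = 3.49e-10).

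Further assembly factors and regulators moved with less unity. Of 43 assembly factors outside the rule, 26 were higher at 12 h and 7 lower in WT cells (median 0.63), and 2 were higher and 27 lower in CTLs (median -0.40). Hccs, which attaches heme to cytochrome c, changed by 2.19 ± 0.11 (adjusted p = 1.05e-13) and then by -1.62 ± 0.11 (adjusted p = 2.33e-11). Of 15 regulators of mitochondrial biogenesis 10 were higher at 12 h and 1 lower (median 0.44), then 2 higher and 10 lower in CTLs (median -0.62). Myc, a transcription factor of growth and metabolism, changed by 3.27 ± 0.18 (adjusted p = 5.22e-13) and then by -2.26 ± 0.18 (adjusted p = 3.72e-10). Of 7 genes of other routes for electrons into ubiquinone 5 were higher at 12 h and 1 lower. In CTLs 1 was higher and 3 were lower, again too few to tell from the shares of all genes. In naive lin28Tg against WT cells, where 19.0% of all genes were higher and 15.8% lower, 12 of 77 ribosome proteins and 2 of 20 tricarboxylic acid cycle genes were higher, shares below that of all genes. Yet the median of the ribosome proteins was 0.10, with 59 of 77 above 0, and their summed FPKM was 1.12-fold that of WT, without overlap. Of the ribosome proteins 1 was lower, 5 of the 7 exchange genes were higher, and 6 of the 15 regulators were lower with none higher. In lin28Tg against let-7Tg CTLs, where 10.8% of all genes were higher and 10.7% lower, 11 of 77 ribosome proteins, 6 of 20 genes of the cycle and 5 of 7 exchange genes were higher, and none of the 3 lists had a lower gene. The other lists had lower genes. Of 43 assembly factors 4 were higher and 2 lower, and of 15 regulators 2 were higher and 2 lower. Of 7 genes of other electron routes 3 were higher and 1 lower. Of 12 mtDNA-encoded genes none was higher and 1 lower (median -0.18).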

How the data were processed

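Total RNA of P14 CD8 T cells was sequenced in 27 libraries, 3 in each of 9 groups of genotype and stage. Per the methods of the study and the submitters' processing notes, the authors indexed the genome with Bowtie2 2.0.6, aligned paired-end reads with TopHat2 2.0.9 and obtained counts and FPKM with HTSeq 0.6.1. The deposited FPKM per library, in 3 tables of 35275 genes, were used here. The same tables hold the authors' own comparisons (group values, log2 fold changes, p-values and adjusted p-values) from DESeq2, which were not used. The builds named are GRCm38 and mm10, and the annotation release and strand setting are not given in the sources used here. Every library was matched by column name, and 0 columns were left without a sample.

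Genes were kept with at least 10 reads, read back from the FPKM steps (100% of 462839 values came out whole within 0.002 reads), in at least 3 libraries. Libraries were scaled by a trimmed mean of ratios, and log2(FPKM + 0.5) was fitted per stage, or over all stages, with limma 3.58.1 in R 4.3.3, with the trend in the variance and Benjamini-Hochberg adjustment over all genes tested at 0.05. The members and gene lists were chosen with earlier results of these data known. The paper calls the 3 libraries of a group biological replicates at each stage. Same-numbered CTL libraries deviated from their group means together (r from 0.245 to 0.715 in 9 pairs), while naive libraries (-0.257 to 0.475) and 12 h libraries (-0.257 to 0.549) did not in every pair. Genes named were taken from core subunits, tissue-restricted forms with their partners, the called members with the 2 smallest adjusted p per complex and direction, and the 3 largest rises and falls of each comparison, but not every gene so listed is named in every comparison, a choice made after the values were seen, and a few others are named because the text counts them. Roles of 4 paralogs or copies were assigned after the files were seen. Other scalings, pseudocounts, filters, the replicate block, voom on the reads, single-stage or pairwise fits and left-out libraries were tried. Positions are from GENCODE vM21 and promoters from RefSeq. Of the members 10 have a near-identical copy elsewhere (at least 95% identity over 50% of a transcript), Atp5l with 9, which can share reads. Python 3.11.15, numpy 2.4.6, pandas 2.3.3 and matplotlib 3.10.9 were used. The result of 1 gene so listed is not reported here.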

Additional observations from a re-analysis of the deposited data

Results flagged for a closer look

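In 19 tests over 16 members the difference between lin28Tg and let-7Tg cells itself differed between stages, by the interaction test in limma at an adjusted p of 0.05. From naive to 12 h cells 9 of 92 members were called lower and 1 higher, where 7.61% of all genes were lower and 5.78% higher, and from 12 h cells to CTLs 9 were higher and none lower, where 9.54% were higher and 11.3% lower, so that the members were not called more often than genes in general when both directions are counted. Groups of 3 libraries were too small for a test of single outlying libraries.

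From naive to 12 h cells, the difference, in log2 units, changed by -0.704 for Atp5e, -0.71 for Atp5mpl and -0.504 for Atp5g2, all of the ATP synthase, with Atp5g1 at -0.545. In complex IV it changed by -0.489 for Cox6c and, in the opposite sense, by 0.386 for Cox7a2l. In complex III Uqcr11 gave -0.565, and in complex I Ndufb9 gave -0.441 and Ndufa12 -0.501. Cox4i2 gave -2.906, and its level rests on naive lin28Tg replicates 2 and 3, which also had the highest myeloid marker sums. Myeloid markers were higher in all 3 naive lin28Tg libraries than in naive WT and let-7Tg libraries, and their part in these differences was not tested.

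From 12 h cells to CTLs, the difference changed by 0.536 for Ndufs1, 0.51 for Ndufa2 and 0.45 for Ndufb9 of complex I, by 0.498 for Sdhc of complex II, by 0.565 for Uqcrq of complex III and by 0.43 for Cox7b of complex IV. Among ATP synthase genes it changed by 0.545 for Atp5f1, 0.684 for Atp5g1 and 0.601 for Atp5mpl. Atp5mpl, Atp5g1 and Ndufb9 were called in both tests, with opposite signs, and both tests use the same 12 h libraries.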

How the results depend on the processing

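The counts of called members between stages within a genotype stayed within 1.5 times under every alternative run, and those between genotypes were less stable. For the interaction of 12 h against naive cells, 10 here, the count was 20 without scaling, 16 with median-of-ratios scaling, 22 with upper-quartile scaling, 20 with the replicate block, 6 with voom and 3 with naive lin28Tg replicate 1 alone. For that of CTLs against 12 h cells, 9 here, it was 28 with the replicate block and 0 with CTL lin28Tg replicate 1 alone. In naive cells replicate 1 alone gave 4 members for lin28Tg against WT (37 here) and 20 for lin28Tg against let-7Tg (45 here). At 12 h, lin28Tg against WT gave 2 with only the libraries compared (1 here). Let-7Tg against WT gave 0 without the filter, with the replicate block, with voom and with only the libraries compared (1 here). Lin28Tg against let-7Tg gave 7 without the filter and 10 with only the libraries compared (16 here). In CTLs, lin28Tg against WT gave 1 without the filter, 11 with the block, 0 with only the libraries compared and 0 with replicate 1 alone (3 here). Let-7Tg against WT gave 1 with the block (0 here), and lin28Tg against let-7Tg gave 0 with replicate 1 alone (31 here). The replicate-1-alone fits were chosen after seeing the data and leave that group 1 library, assumed to vary like the others. The replicate block changed no other count by over 1.5 times. All of these are counts of members, and the share of all genes called under each run is not set beside them.

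Leaving out single libraries gave 18 to 34 members for lin28Tg against WT in naive cells. At 12 h it gave 0 to 1 for lin28Tg against WT, 0 to 2 for let-7Tg against WT and 2 to 13 for lin28Tg against let-7Tg. In CTLs it gave 0 to 1 for lin28Tg against WT and 13 to 37 for lin28Tg against let-7Tg. The interactions gave 6 to 16 (12 h against naive) and 8 to 25 (CTL against 12 h). Of the named gene values, 1841 kept direction and side of the threshold, 229 lost the call, 13 gained one and 1 changed sign, which was Cox4i2 at 12 h against naive in lin28Tg (0.071, adjusted p = 0.884, with naive replicate 1 alone). The causes were not tested beyond fewer libraries or genes in a fit. Depth limits the members that the filter on reads left out (90 to 92 of 99 were tested) and those at a few FPKM.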
